A study of Mus musculus with 10 samples.

Results

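The 10 genes described here mark simple epithelium and the urothelium, the lining of the bladder. They are the keratin genes Krt7, Krt8, Krt18 and Krt19, the adhesion genes Epcam and Cdh1, the tight junction genes Cldn4 and Cldn7, and the uroplakin genes Upk1b and Upk3a. They were chosen by name as markers of the tissue from which the MB-49 bladder cancer line comes, and all 10 were found among the 24202 gene symbols measured. MB-49 is a mouse bladder cancer cell line, and 100000 of its cells were injected subcutaneously, on the right flank, into mice with a knock-in of human LRRC32 (labelled hLrrc32 knock-in). Of the 10 whole tumors, 5 came from mice treated with PIIO-1, an antibody against GARP, the LRRC32 product that holds latent TGF-beta. Each of these mice received 200 ug of the antibody by intraperitoneal injection on day 6 and again on day 9. The other 5 came from mice treated with PBS and carrying the same knock-in, and all tumors were collected on day 10. Tumors were made into cell suspensions and their RNA was sequenced in bulk, so each library mixes MB-49 cells with host cells, and the line grew outside the bladder.

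Keratins are the intermediate filament proteins of epithelial cells, and each filament pairs a type II keratin (here Krt7 and Krt8) with a type I keratin (here Krt18 and Krt19). E-cadherin, encoded by Cdh1, holds epithelial cells together through catenins, and claudins seal the space between them. Uroplakins form the plaques on the luminal face of the urothelium and are its most specific markers. Carcinoma cells that take on a mesenchymal state are known to lower junction genes and raise vimentin (Vim).

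Epithelial identity was uneven across the 10 genes. Krt8 and Krt18 stood among the most abundant transcripts of the tumors, while Cldn7 and Upk3a lay at the limit of detection. Epcam, Cldn4 and Upk1b were low, with at most 34 reads in a tumor, and Cdh1, Krt19 and Krt7 lay between. The libraries held 18843192 (PBS tumor 4) to 37581521 (PBS tumor 3) reads in genes, so that 3 reads were worth 2.45 to 4.68 normalized counts, and the PIIO-1 libraries lay inside that range. A normalized count is the number of reads of a gene after scaling each library for depth. Levels of different genes are compared per kilobase of exon, where the mean over all 10 tumors ran from 29481 for Krt8 to 1.01 for Upk3a.

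**Figure D1:**
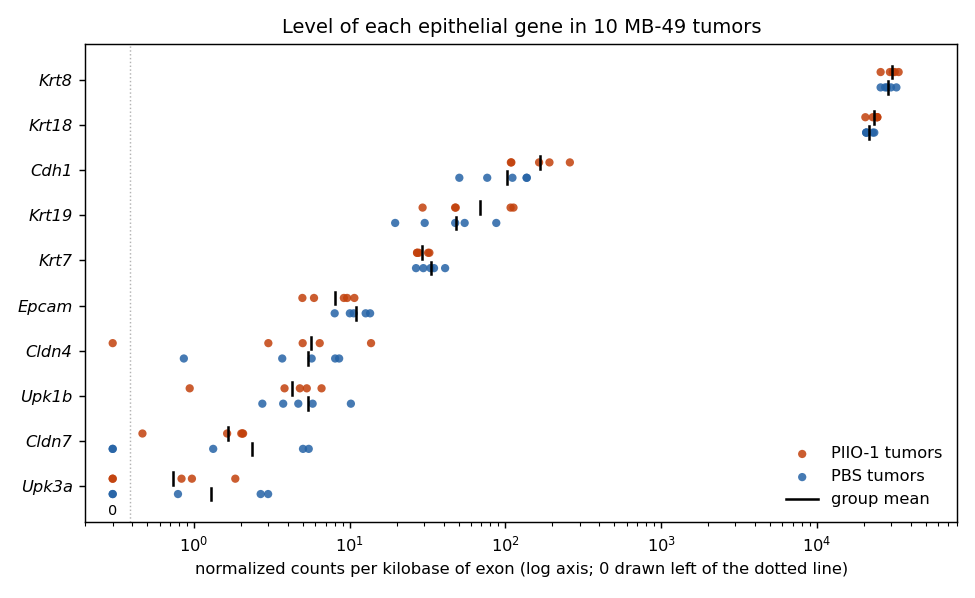
Normalized counts per kilobase of exon (log axis) of the 10 genes in each PIIO-1 tumor (red-orange) and PBS tumor (blue), with the group means as black bars and values of 0 drawn left of the dotted line. Krt8 and Krt18 stand at 20491 per kilobase or higher in all 10 tumors, and Upk3a averages 1.01.

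Krt8, the type II keratin of simple epithelia, had 61994, 57670, 60237, 50292 and 65634 normalized counts in PIIO-1 tumors 1 to 5, against 55290, 63491, 58580, 53768 and 50275 in PBS tumors 1 to 5. The groups overlapped over most of their range, and the highest tumor held 1.31 times the count of the lowest. Per kilobase, its level averaged 30217 ± 2933 in PIIO-1 and 28744 ± 2562 in PBS tumors (SD, n = 5 each). By mean level per kilobase it took place 20 of the 23960 genes with an annotated length, and its place ran from 17 to 31 in single tumors. Krt8 alone took 0.160% to 0.209% of the reads of a library.

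Krt18, the type I partner of Krt8 in simple epithelia, had 34894, 32833, 35185, 29446 and 35124 normalized counts in PIIO-1 tumors 1 to 5, against 29957, 33603, 32879, 29839 and 29791 in PBS tumors 1 to 5. Its highest tumor exceeded its lowest by 1.19 times, the narrowest spread among the 10 genes. It took place 40 of 23960 per kilobase, and places 32 to 47 in single tumors. The Krt8 to Krt18 ratio per kilobase stayed between 1.24 and 1.39 in the 10 tumors, averaging 1.29 ± 0.048 in PIIO-1 and 1.32 ± 0.056 in PBS tumors (SD, n = 5 each). Both genes therefore kept nearly fixed proportions from tumor to tumor.

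The genes lie next to each other on chromosome 15 of GRCm38 and point away from each other. Krt8 spans 101996698 to 102004482 on the minus strand, and Krt18 spans 102028180 to 102032027 on the plus strand, with 23697 bases between them. The bases just upstream of each are shown because these are the most active of the 10 genes. They come from RefSeq (GRCm38.p6), are written in the direction of transcription and stop where the first annotated exon begins. Capitals mark the motifs named below.
Krt8, chr15:102004483-102004592, minus strand: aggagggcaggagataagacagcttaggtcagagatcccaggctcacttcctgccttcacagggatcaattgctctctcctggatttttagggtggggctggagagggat
Krt18, chr15:102027966-102028179, plus strand: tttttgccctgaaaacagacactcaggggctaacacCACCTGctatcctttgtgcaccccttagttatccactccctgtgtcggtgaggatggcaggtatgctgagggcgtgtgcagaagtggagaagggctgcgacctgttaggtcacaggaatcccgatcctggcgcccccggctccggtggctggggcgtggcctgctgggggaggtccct

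The motifs were searched on both strands in the 250 bases before each RefSeq start. They were the TATA box (TATAAA), the E-box that Snail and Zeb factors bind (CACCTG), the AP-1 site (TGANTCA) and the GC box (GGGCGG). Of 32817 upstream windows of that length, 12.4% held the TATA letters, 17.2% the E-box, 6.75% the AP-1 site and 32.7% the GC box. The Krt18 window held 1 E-box match and none of the other motifs. The Krt8 window also held 1 E-box match, in bases that GENCODE counts as exon and that are not shown. A match describes the letters only.

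Krt7, a type II keratin of ducts and urothelium on chromosome 15 (101411043 to 101430313, plus strand), had 229, 196, 191, 224 and 191 normalized counts in PIIO-1 tumors 1 to 5, against 209, 289, 245, 233 and 188 in PBS tumors 1 to 5. All 5 PIIO-1 values lay below the PBS median of 233, but they overlapped the lower PBS tumors. Krt7 reached place 12889 of 23960 per kilobase. Krt8 held 99.9% of the summed Krt7 and Krt8 level per kilobase in every tumor.

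Krt19, a type I keratin found in ducts and in all layers of the urothelium (chromosome 11, 100140810 to 100148665, minus strand), had 209, 88.1, 200.0, 88.9 and 54.5 normalized counts in PIIO-1 tumors 1 to 5, against 36.3, 101, 88.2, 56.2 and 162 in PBS tumors 1 to 5. PIIO-1 tumors 1 and 3 and PBS tumor 5 were high, and the groups overlapped. The highest tumor held 5.75 times the count of the lowest, against 1.31 times for Krt8. Krt18 made up 99.5% to 99.9% of the summed Krt18 and Krt19 level per kilobase.

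Cdh1, which encodes E-cadherin (chromosome 8, 106603351 to 106670246, plus strand), had 495, 499, 752, 1185 and 877 normalized counts in PIIO-1 tumors 1 to 5, against 231, 349, 507, 627 and 624 in PBS tumors 1 to 5. PIIO-1 tumor 4 was highest and PBS tumor 1 lowest, and the lower PIIO-1 tumors overlapped the upper PBS tumors. Cdh1 took place 8766 of 23960 per kilobase. Per kilobase its level was 8.65% ± 3.59 of that of Ctnnb1, which encodes the beta-catenin that binds its tail, in PIIO-1 tumors, and 5.27% ± 1.88 in PBS tumors (SD, n = 5 each).

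Epcam, an epithelial adhesion molecule used to isolate carcinoma cells (chromosome 17, 87635979 to 87651129, plus strand), had 12.9, 23.5, 21.1, 20.1 and 10.9 normalized counts in PIIO-1 tumors 1 to 5, against 22.0, 17.6, 27.8, 29.6 and 23.3 in PBS tumors 1 to 5. PIIO-1 tumors 1 and 5 lay below all PBS tumors, and the other 3 overlapped them. These are 12 to 24 reads per PIIO-1 library and 18 to 34 per PBS library. For every 10000 Krt8 reads a tumor gave between 1.66 and 5.51 Epcam reads.

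Cldn4, a claudin of tight epithelia and a marker of the urothelium (chromosome 5, 134945119 to 134946934, minus strand), had 24.9, 0, 9.05, 11.6 and 5.45 normalized counts in PIIO-1 tumors 1 to 5, against 6.69, 14.6, 15.5, 1.56 and 10.3 in PBS tumors 1 to 5. PIIO-1 tumor 1 was highest with 25 reads, and PIIO-1 tumor 2 had 0 reads, which allows up to 2.94 normalized counts (3 reads, counting error only). Cldn7, a claudin that binds EpCAM (chromosome 11, 69964779 to 69967885, plus strand), had 3.98, 3.91, 4.02, 3.18 and 0.908 normalized counts in PIIO-1 tumors 1 to 5, against 0, 9.75, 10.6, 0 and 2.58 in PBS tumors 1 to 5. It had 3 reads or fewer in 2 PIIO-1 and 3 PBS tumors, and 16 reads in all PIIO-1 and 26 in all PBS libraries together.

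The upstream bases of Epcam and Cldn4 are shown to set a pair of the low genes beside Krt8 and Krt18, from the same RefSeq table and with the same motifs in capitals.
Epcam, chr17:87635729-87635978, plus strand: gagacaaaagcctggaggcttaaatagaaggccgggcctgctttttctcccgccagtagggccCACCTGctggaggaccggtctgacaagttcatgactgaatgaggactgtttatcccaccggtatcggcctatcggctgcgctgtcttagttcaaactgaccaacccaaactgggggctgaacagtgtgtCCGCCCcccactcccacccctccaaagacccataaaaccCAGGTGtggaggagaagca
Cldn4, chr5:134946935-134947184, minus strand: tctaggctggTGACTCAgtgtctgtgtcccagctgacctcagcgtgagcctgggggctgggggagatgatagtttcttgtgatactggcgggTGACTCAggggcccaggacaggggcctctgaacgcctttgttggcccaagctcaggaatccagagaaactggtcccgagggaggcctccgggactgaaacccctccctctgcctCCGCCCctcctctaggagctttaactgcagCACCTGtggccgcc
The Epcam window held 2 E-box matches and 1 GC box. The Cldn4 window held 2 AP-1 matches, 1 GC box and 1 E-box. Of the windows not shown, that of Krt7 held 1 E-box match, that of Upk3a held 0, and Cldn7, with 2 RefSeq starts, held 0 in the first and 2 in the second. G and C made up 58.0% of the Krt8, 60.4% of the Krt18, 56.4% of the Epcam and 62.0% of the Cldn4 window, against a median of 52.4% over all windows. RefSeq windows were found for 7 of the 10 genes, without Krt19, Cdh1 and Upk1b.

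Upk1b, a tetraspanin uroplakin (chromosome 16, 38773184 to 38800328, minus strand), had 7.96, 1.96, 11.1, 13.8 and 9.98 normalized counts in PIIO-1 tumors 1 to 5, against 5.73, 9.75, 21.2, 7.80 and 12.1 in PBS tumors 1 to 5. The groups overlapped, with PIIO-1 tumor 2 lowest at 2 reads and PBS tumor 3 highest at 26 reads. Upk3a, the uroplakin whose protein pairs with that of Upk1b (chromosome 15, 85017141 to 85022547, plus strand), had 0, 0, 2.01, 1.06 and 0.908 normalized counts in PIIO-1 tumors 1 to 5, against 0, 2.93, 3.27, 0 and 0.861 in PBS tumors 1 to 5. No tumor gave more than 4 Upk3a reads, and 4 of the 10 gave 0. The 4 tumors with 0 Upk3a reads gave between 34457 and 62322 Krt8 reads. For Upk3a, 0 reads allows up to 2.98 normalized counts in PIIO-1 tumor 1, 2.94 in PIIO-1 tumor 2, 2.87 in PBS tumor 1 and 4.68 in PBS tumor 4.

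**Figure D2:**
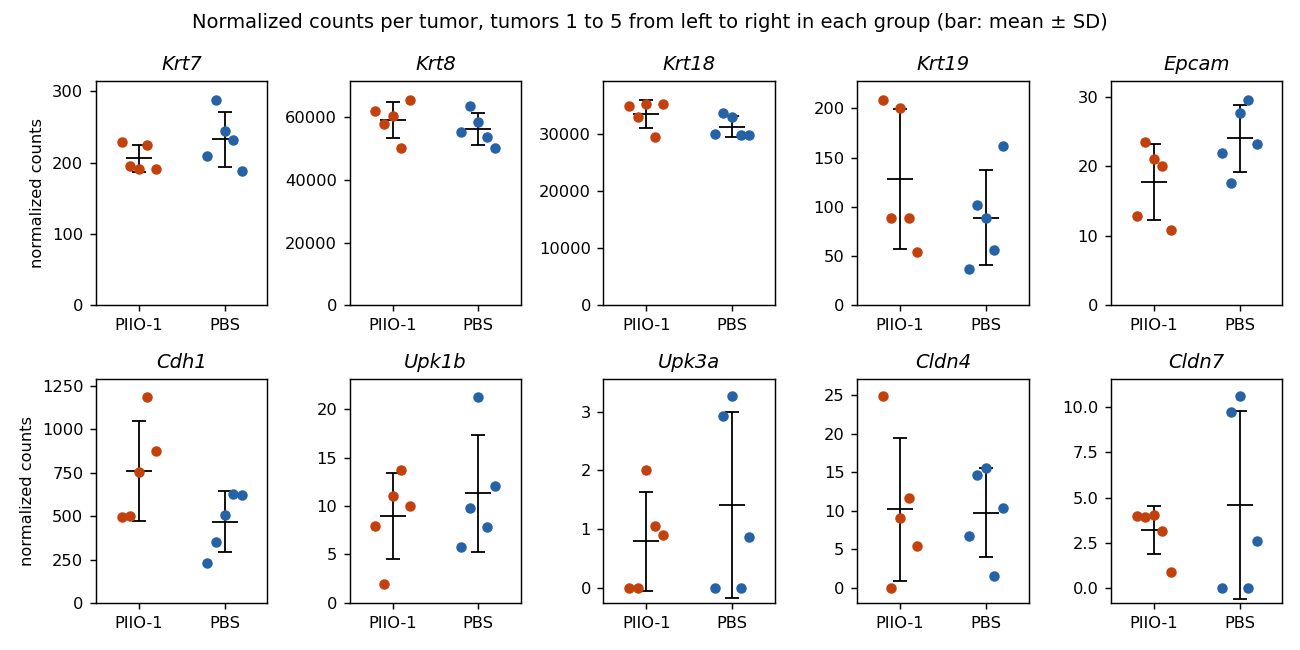
Normalized counts (linear axes from 0, or just below it where values reach 0) of each gene in PIIO-1 tumors (red-orange) and PBS tumors (blue), tumors 1 to 5 from left to right, with mean and SD as black bars. The groups overlap for all 10 genes, and the 5 PIIO-1 tumors sit from 495 to 1185 for Cdh1, against 231 to 627 in the PBS tumors.

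The order of the levels per kilobase was Krt8, Krt18, Cdh1, Krt19, Krt7, Epcam, Cldn4, Upk1b, Cldn7 and Upk3a. Neighbours in that order were compared within tumors by an exact two-sided paired permutation test, with p adjusted over the 9 pairs (smallest possible p before adjustment 0.00195). Krt8 exceeded Krt18 in 10 of 10 tumors (1.31 times, adjusted p = 0.00586), and Krt18 exceeded Cdh1 by 168 times in 10 of 10. Cdh1 exceeded Krt19 in 9 of 10 (adjusted p = 0.00879), Krt19 exceeded Krt7 in 8 of 10 (adjusted p = 0.0234) and Krt7 exceeded Epcam in 10 of 10 (adjusted p = 0.00586). Lower in the order, Epcam and Cldn4 (4.02 ± 5.65 per kilobase apart, SD of 10 tumors, adjusted p = 0.0659) and Cldn4 and Upk1b (0.643 ± 3.67 apart, adjusted p = 0.736) did not differ beyond their spread. Epcam exceeded Cldn4 in 8 of 10 tumors, but Cldn4 exceeded Upk1b in only 3 of 10. The order was taken from the same tumors that were then tested. Upk1b exceeded Cldn7 in 8 of 10 tumors (adjusted p = 0.0141), and Cldn7 exceeded Upk3a in 7 of 10 (adjusted p = 0.0301). With the length of the longest transcript in place of all exons, a check added after seeing the data, the order was the same but the calls on 2 pairs changed. Krt19 then exceeded Krt7 in 5 of 10 tumors (adjusted p = 0.299, exact test as above), and Epcam exceeded Cldn4 in 9 of 10 (adjusted p = 0.0402).

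The treatment comparison asks whether the GARP antibody shifted any of these genes, and no gene passed. Of the 10 genes, 7 had a mean of at least 10 normalized counts and were tested with limma on log2(normalized count + 1) over all 16767 such genes. Upk1b passed that minimum narrowly with a mean of 10.1, Cldn4 missed it with 9.97, and Cldn7 (3.89) and Upk3a (1.10) were further below. Of the 7, 0 passed a Benjamini-Hochberg adjusted p of 0.05 (limma; 0.0% of all genes tested passed), 1 had an unadjusted p under 0.05 (5.63% of all genes tested, 2.86% higher and 2.77% lower in PIIO-1 tumors), and edgeR (0.0% of genes called) and DESeq2 (0.0179% of genes called) called 0. The groups overlapped for all 10 genes, where 0.853% of the genes tested did not overlap. Differences were positive for 4 and negative for 3 of the 7, with a median of 0.071 on the log2 scale, against 51.1% positive and a median of 0.0027 over all genes tested. Nothing in the labels ties each tumor to an animal of its own, so the p-values cover only sample-to-sample spread, which may be technical.

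Differences are PIIO-1 minus PBS on the log2(normalized count + 1) scale, which understates changes of low genes, with limma's standard error (SE) and 95% interval. Krt8 differed by 0.071 (SE 0.087, interval -0.12 to 0.26, adjusted p = 0.912) and Krt18 by 0.10 (SE 0.067, interval -0.046 to 0.25, adjusted p = 0.847). These intervals leave out a 1.5-fold change of either keratin in either direction, since their outer bounds correspond to 0.921 to 1.20 times for Krt8 and 0.969 to 1.19 times for Krt18. Cdh1 averaged 762 ± 288 normalized counts in PIIO-1 and 468 ± 174 in PBS tumors, a difference of 0.72 (SE 0.31, interval 0.041 to 1.39, adjusted p = 0.837). It was the gene with an unadjusted p under 0.05 (0.0395), and 3 of 5 PIIO-1 tumors lay above every PBS tumor. With PIIO-1 tumor 3, 4 or 5 or PBS tumor 1 or 2 left out, that unadjusted p was 0.0664, 0.101, 0.0805, 0.0994 and 0.0843 in turn.

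Epcam averaged 17.7 ± 5.48 in PIIO-1 and 24.0 ± 4.80 in PBS tumors, a difference of -0.45 (SE 0.26, interval -1.01 to 0.11, adjusted p = 0.837). It therefore pointed the other way from Cdh1. Krt19 averaged 128 ± 71.2 in PIIO-1 and 88.8 ± 48.3 in PBS tumors, a difference of 0.51 (SE 0.44, interval -0.46 to 1.48, adjusted p = 0.877). Krt7 averaged 206 ± 18.9 in PIIO-1 and 233 ± 38.3 in PBS tumors, a difference of -0.16 (SE 0.12, interval -0.43 to 0.099, adjusted p = 0.861). Upk1b differed by -0.37 (SE 0.46, interval -1.38 to 0.65, adjusted p = 0.914), and by 0.025 without PIIO-1 tumor 2. For Cdh1, Epcam, Krt19 and Upk1b a 2-fold change in at least 1 direction lies inside the interval.

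**Figure D3:**
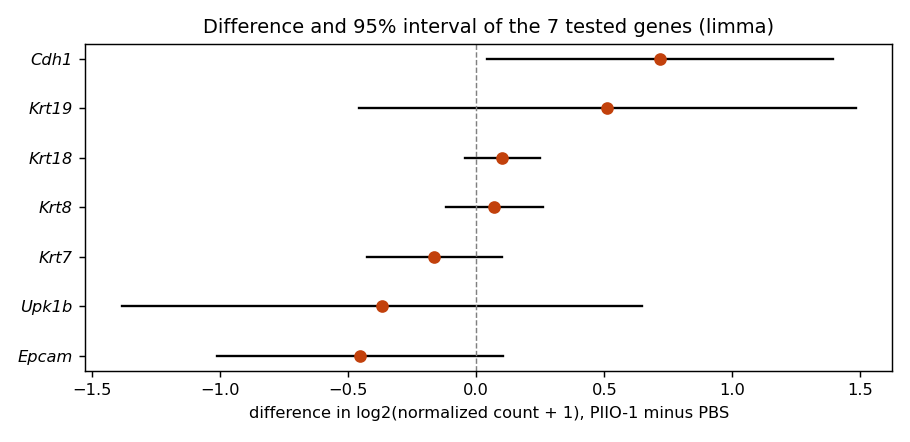
Difference in log2(normalized count + 1), PIIO-1 minus PBS, with its 95% limma interval, for the 7 genes tested. The interval of Cdh1 (0.041 to 1.39) lies above 0, but its adjusted p over all genes is 0.837. Those of Krt8 and Krt18 are the narrowest.

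The genes differed in how their levels followed other transcripts over the tumors. Likeness was measured for genes with a mean of at least 10 and an SD of at least 0.5 on the log2 scale (Cdh1, Krt19 and Upk1b), as the root mean square difference between log2 deviations from each gene's own mean over 10 tumors. For Cdh1 the most like of 13109 candidate genes were Zdhhc14 (0.21), a palmitoyltransferase gene, Siglecg (0.24), an inhibitory receptor gene of leukocytes, and Ccl6 (0.27), a chemokine gene of myeloid cells. For Krt19 they were 2610528A11Rik (0.22), Arhgef17 (0.28) and Car9 (0.37), the hypoxia-induced carbonic anhydrase IX. Upk1b had no gene closer than Gm16026 (0.50), at a log2 SD of 0.77 for Upk1b itself. The genes were picked as the closest of many, so these values describe the tumors and carry no test.

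**Figure D4:**
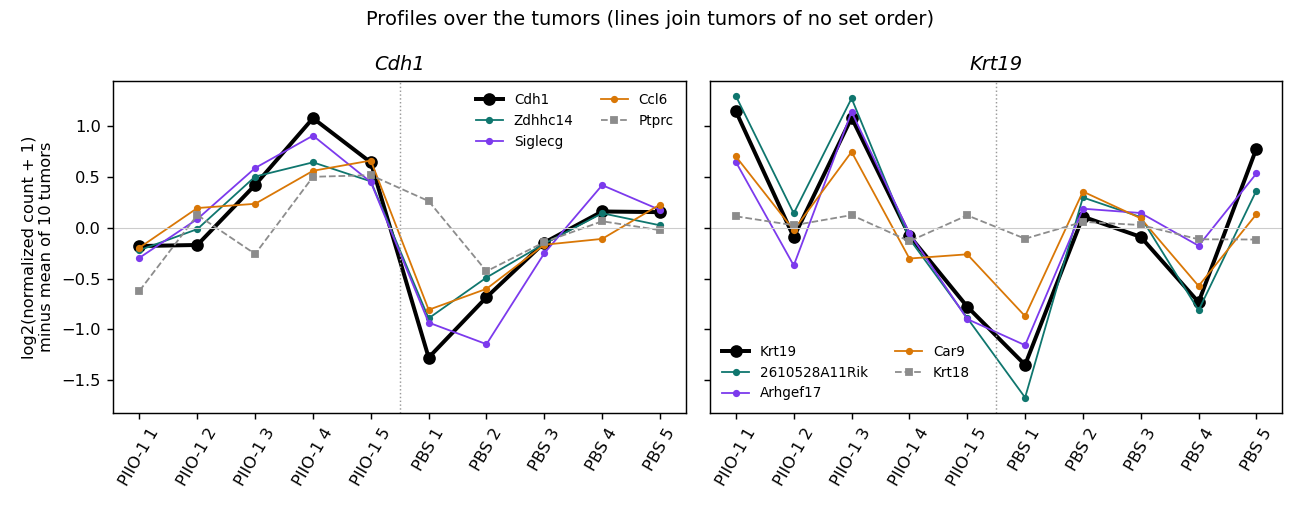
log2(normalized count + 1) minus the mean of 10 tumors for Cdh1 (left) and Krt19 (right), each with its 3 most alike genes and, dashed, Ptprc or Krt18 for reference; PIIO-1 tumors stand left of the dotted line and PBS tumors right. Cdh1 and Siglecg are both highest in PIIO-1 tumor 4, and Krt19 and Car9 are both high in PIIO-1 tumors 1 and 3, while Krt18 stays near 0.

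Leukocyte transcripts also differed among the tumors with high and low Cdh1. Ptprc, the pan-leukocyte gene CD45, had 7928, 13292, 10188, 17239 and 17430 normalized counts in PIIO-1 tumors 1 to 5, against 14609, 9056, 11047, 12735 and 11985 in PBS tumors 1 to 5. The PIIO-1 tumors with the highest Cdh1 (4 and 5) had the highest Ptprc of all 10, but PBS tumor 1, lowest in Cdh1, followed them in Ptprc. Of 10 genes marking leukocytes, 8 differed upward and 2 downward, and their summed counts ran from 28794 to 57369 in PIIO-1 and from 27130 to 45252 in PBS tumors. Of 10 genes of Langerhans and migratory dendritic cells, which can also make E-cadherin, 9 were analysed. The Langerhans cell gene Cd207 (langerin) was the one missing, so the values do not single out Langerhans cells. Of the 9, 8 were tested and 7 differed upward, with sums of 8580 to 13741 in PIIO-1 and 7328 to 12943 in PBS tumors. Of 10 mast cell genes 9 were analysed, without Cpa3. All 7 tested differed upward, with sums of 4427 to 15581 in PIIO-1 and 4187 to 8634 in PBS tumors. Hdc made up most of the sum in every tumor, at 3823 to 13684 in PIIO-1 and 3706 to 7946 in PBS tumors. PIIO-1 tumors 4 and 5 stood apart with mast cell sums of 10382 and 15581, of which Hdc alone gave 9511 and 13684. PIIO-1 tumors 1 to 3 (4427 to 4972) lay within the PBS range. In PIIO-1 tumor 4, Mcpt4 (78.3), Cma1 (38.1) and Tpsb2 (31.8) lay within their PBS ranges. Kit (505), Ms4a2 (158) and Fcer1a (56.1) lay above every PBS tumor there. In PIIO-1 tumor 5 all of these genes lay above every PBS tumor. Of the 25 genes tested from these leukocyte, dendritic and mast cell lists, 0 passed (limma, adjusted p over all genes). An unadjusted p under 0.05 was found for 2 (Itgam, a myeloid integrin gene, and Ms4a2, which encodes the beta chain of the IgE receptor). The shares over all genes tested were 51.1% upward and 5.63% with an unadjusted p under 0.05. The part of these cells in the Cdh1 values was not tested. In bulk tumors, fewer cells of a type and less RNA per cell cannot be told apart.

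Skin lies over these tumors, so keratinocyte genes are given beside the low members. Of 22 keratinocyte and hair follicle genes 21 were analysed, 12 had a mean of at least 10, and 10 of these differed upward, 4 of them with an unadjusted p under 0.05 and 0 with an adjusted p under 0.05 (limma). Over all genes tested, 51.1% differed upward and 5.63% had an unadjusted p under 0.05. Dmkn, which encodes the epidermal protein dermokine, averaged 160.3 ± 57.4 normalized counts in PIIO-1 and 85.3 ± 22.6 in PBS tumors, and Sprr1a, which encodes a cornified envelope precursor, averaged 1407 ± 327 in PIIO-1 and 889.8 ± 323 in PBS tumors. Summed over the list, levels ran from 2687 to 4583 in PIIO-1 and from 1848 to 3427 normalized counts in PBS tumors. Lor, which encodes the cornified envelope protein loricrin, gave at most 6 reads in any tumor. Krt5, a basal keratin of skin and urothelium named after its values were seen, had 79.6, 1.96, 68.4, 45.5 and 139 normalized counts in PIIO-1 tumors 1 to 5, against 43.0, 118, 106, 4.68 and 68.0 in PBS tumors 1 to 5. It was lowest in PIIO-1 tumor 2 and PBS tumor 4, which are also the tumors lowest in Cldn4. Their highest tumors differed: Krt5 peaked in PIIO-1 tumor 5, where Cldn4 was 5.45, and Cldn4 peaked in PIIO-1 tumor 1. Other listed genes went both ways, as Krt15 was also lowest in PIIO-1 tumor 2 (8.81) and PBS tumor 4 (6.24). Dmkn in PBS tumor 4 (112) was the highest of the PBS tumors. The shared low was not confined to the keratinocyte list, and Krt5 is also on the list of other urothelial genes below. On that list, Krt4 (1.96 and 1.56) and Psca (3.91 and 4.68) were lowest in PIIO-1 tumor 2 and PBS tumor 4 too. Krt13, also listed there, was instead lowest in PIIO-1 tumors 2 and 4 (4.89 and 5.29). PBS tumor 4 is the shallowest library, and PIIO-1 tumor 2 holds 30921904 reads. The part of skin cells in the Cldn4 counts was not tested.

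Other urothelial genes spread from abundant to near-absent as well. Fgfr3, Elf3, Gata3 and Pparg lay between, with means of 358, 187, 161 and 97.2 normalized counts over all tumors. Of 20 other urothelial genes, 15 had a mean of at least 10 normalized counts. Klf5 and Foxa1, transcription factors of the urothelium, stood at 2057 ± 339.9 and 1481 ± 245 in PIIO-1 tumors, against 1796 ± 214 and 1436 ± 210.4 in PBS tumors. Krt14, a basal keratin, averaged 1079 ± 156 in PIIO-1 and 823 ± 199.6 in PBS tumors, a difference of 0.41 (SE 0.16). By contrast Upk2, the partner of Upk1a, averaged 0.199 ± 0.445 in PIIO-1 and 2.52 ± 2.40 in PBS tumors, at most 6 reads in a library. Upk1a averaged 28.5 ± 8.77 in PIIO-1 and 28.5 ± 5.84 in PBS tumors. Trp63, the basal cell factor p63, gave at most 11 reads and Krt20, the keratin of umbrella cells, at most 7. Of the 15 tested, 5 differed upward and 10 downward, with a median of -0.026. By limma 0 passed the adjusted p, and Krt14 alone had an unadjusted p under 0.05. Among all genes tested, the shares were 51.1% upward and 5.63% with an unadjusted p under 0.05, with a median of 0.0027. Krt14 is also on the keratinocyte and mammary epithelium lists and is counted in each.

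Other epithelial junction genes ran from nearly undetected to abundant. Of 29 other epithelial junction genes 27 were analysed and 23 tested, 15 upward and 8 downward with a median difference of 0.046. For all genes tested, 51.1% were upward and the median was 0.0027. The 4 analysed genes with a mean under 10 normalized counts were Crb3, Cdh3, Dsg2 and Marveld3, with at most 13 reads in a tumor. Dsc2, which encodes the desmosomal cadherin desmocollin 2, averaged 29.7 ± 5.86 in PIIO-1 and 25.7 ± 16.9 in PBS tumors, and Dsp, which encodes desmoplakin, averaged 31.5 ± 21.8 in PIIO-1 and 28.1 ± 16.6 in PBS tumors. Ctnnb1 and Ctnna1, the catenins that link cadherins to actin, averaged 10094 ± 457 and 10126 ± 366 normalized counts in PIIO-1 tumors, against 9994 ± 385 and 9765 ± 531 in PBS tumors. Pkp3, a desmosomal plakophilin gene, averaged 1893 ± 93.4 in PIIO-1 and 2018 ± 146 in PBS tumors, and the claudin gene Cldn12 averaged 844 ± 61.7 in PIIO-1 and 911 ± 50.9 in PBS tumors. Among 20 epithelial regulators and apical genes, 19 were analysed and 12 tested, 9 upward and 3 downward with a median difference of 0.22. The most abundant, Cd24a, is also made by leukocytes and averaged 3430.1 ± 1206 in PIIO-1 and 2366 ± 638 in PBS tumors (difference 0.51, SE 0.26). Esrp1, an epithelial splicing factor gene named after its values were seen, gave at most 13 reads. In both lists 0 genes passed or had an unadjusted p under 0.05 (limma, 5.63% of all genes tested), and edgeR and DESeq2 called 0 genes of any list named here.

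Vim, the mesenchymal intermediate filament gene, stood level with Krt8 per kilobase of exon but above it in counts. It averaged 142612 ± 11561 normalized counts in PIIO-1 and 135845 ± 9634 in PBS tumors, against 59166 ± 5744 and 56281 ± 5016 for Krt8. The comparison per kilobase rests on the exon length used and was not repeated with the longest transcript of Vim. Krt8 has 1958 bases by either length, and a longest transcript cannot exceed the length of all exons. The longest transcript could therefore only keep Vim level with Krt8 or raise it above. Its level per kilobase averaged 30068 ± 2438 in PIIO-1 and 28641 ± 2031 in PBS tumors, place 22 of 23960, and the Krt8 to Vim ratio per kilobase ran from 0.871 to 1.08. Vim is also made by fibroblasts, endothelium and leukocytes, which these libraries contain. Zeb1 and Zeb2, repressors of Cdh1 named after their values were seen, averaged 2428 ± 199 and 3955 ± 747 normalized counts in PIIO-1 tumors, against 2451 ± 191 and 3631 ± 571 in PBS tumors. Other repressors were lower, with means over all tumors of 117 for Snai1, 97.5 for Snai2, 7.41 for Twist1 and 184 for Twist2. Zeb2 was highest in PIIO-1 tumors 4 and 5 (4675 and 4617), as was Ptprc. Which cells made these transcripts was not tested. Cdh2, which encodes N-cadherin, gave at most 8 reads in any tumor. Fn1, which encodes fibronectin, was abundant, averaging 11913 ± 1638 in PIIO-1 and 8659 ± 4772 in PBS tumors. Its difference was 0.63 (SE 0.32, limma adjusted p = 0.837), and PBS tumors ran from 3725 to 15763, around the PIIO-1 range of 10429 to 14623. Of the 8 tested genes among 10 repressors and mesenchymal markers, 6 differed upward, and 0 passed (limma, adjusted p) or had an unadjusted p under 0.05. In the whole set of genes tested, 51.1% differed upward and 5.63% had an unadjusted p under 0.05.

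**Figure D5:**
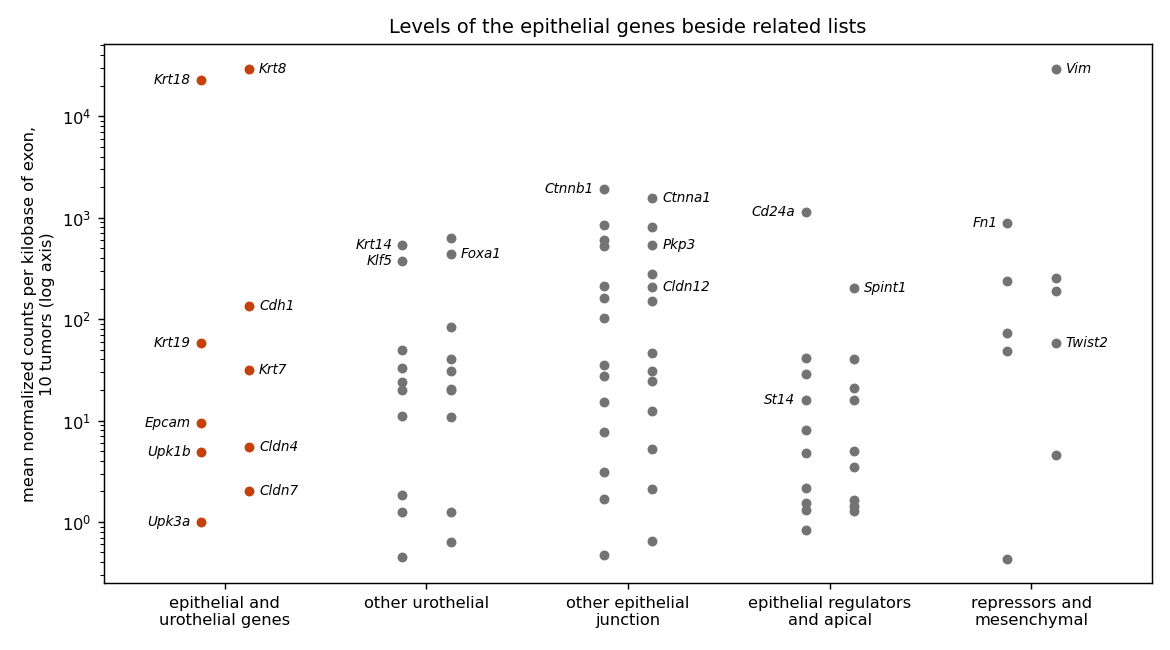
Mean normalized counts per kilobase of exon over 10 tumors (log axis) of the 10 epithelial and urothelial genes (red-orange) and of the genes of 4 related lists (grey), with the named genes labelled. Krt8, Krt18 and Vim stand apart at the top, and Upk3a, Cldn7, Upk1b, Cldn4 and Epcam lie below 10 per kilobase.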

How the data were processed

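The deposited values are normalized counts per gene (a depth-scaled signal, 0 or higher) in each tumor; per the submitters' processing notes, HISAT2, featureCounts and DESeq2 were used with build GRCm38. The tool versions, annotation and counting strand were not given in the sources used here. Without the strand, the 77 exonic bases that Krt7 shares with the antisense gene Gm671 and the 101 that Krt8 shares with Gm36026 cannot be told apart. The pseudogene Krt8-ps (50.8 to 93.5 normalized counts) may share reads with Krt8. Dividing each column by its smallest step gave whole reads for 100% of values (within 0.001 read). Tumors were grouped by their treatment label and numbered as in their titles, which call the antibody a4D3.

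Exon lengths came from GENCODE M21 (GRCm38), in which 23960 symbols (99.0%) matched 1 gene. limma 3.58.1 (R 4.3.3, intensity trend) tested log2(normalized count + 1) of genes with a mean of at least 10, two-sided. edgeR 4.0.16 and DESeq2 1.42.0 (no independent filtering) used the recovered reads. Genes named beyond the 10 were, per list, the 2 most abundant and the 2 with the smallest p, and the 3 most alike with a mean of at least 50, not all of which are reported. Krt5, Zeb1, Zeb2, Upk3bl, Dsc2, Dsp and genes given only by their highest read count were named after their values were seen. So were Krt4, Krt13, Krt15, Psca, Snai1, Snai2, Twist1, Mcpt4, Cma1, Tpsb2, Fgfr3, Elf3, Gata3 and Pparg. Members, lists and tests were chosen with earlier results of these data known. Listed cells of mammary epithelium (4 of 10 genes analysed, sums of 1131 to 1715 in PIIO-1 and 907 to 1533 in PBS tumors) and fibroblasts and endothelium (9 of 10 tested, sums of 5842 to 9189 in PIIO-1 and 5549 to 9322 in PBS tumors) had 0 genes passing limma's adjusted p. They had 2 and 0 with an unadjusted p under 0.05 (5.63% of all genes tested). The 2 were Areg and Krt14, which is also on the urothelial and keratinocyte lists and had the highest mean of the 4 mammary genes (951). Csn2, Csn1s1, Wap, Lalba, Elf5 and Prlr were not among the symbols measured.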

Additional observations from a re-analysis of the deposited data

Results flagged for a closer look

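Cldn7 in PIIO-1 tumor 5, at 0.908 normalized counts (1 read), lay apart from the other 4 PIIO-1 tumors (3.18 to 4.02), with a gap of 0.728 of the group's range, above Dixon's 95% limit for 5 samples. It was the only such value among 20 sets of 5 tumors checked (10 genes in each treatment group), where chance gives about 1 in 20. None of the 5 values rests on more than 4 reads.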

How the results depend on the processing

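Over 21 alternatives, 0 of the 10 genes passed an adjusted p of 0.05 in any, and 141 of 142 recomputed differences kept their sign; the exception was Upk1b at 0.025 without PIIO-1 tumor 2, its range with single tumors left out being -0.55 to 0.025. DESeq2 called 3 genes over all genes, none of them a member, where limma called 0. The count of members at an unadjusted p under 0.05 was 0 with limma without a trend, 0 with PIIO-1 tumor 5 and PBS tumor 4 both left out (chosen after seeing the data), and 0 to 1 with single tumors left out, the 1 without PIIO-1 tumor 4 being Krt18 and not Cdh1. Upk1b had no value at a minimum mean of 50, or with PIIO-1 tumor 4, PBS tumor 3 or PBS tumor 5 left out, where its mean fell under 10. The difference of Cdh1 ran from 0.49 (PBS tumor 1 left out) to 0.85 (PIIO-1 tumor 1 left out). That of Krt19 ran from 0.24 (PBS tumor 1 left out) to 0.77 (PBS tumor 5 left out), that of Krt7 from -0.24 (PBS tumor 5) to -0.082 (PBS tumor 2), that of Krt8 from 0.031 (PBS tumor 5) to 0.13 (PIIO-1 tumor 4), that of Krt18 from 0.082 (PIIO-1 tumor 3) to 0.15 (PIIO-1 tumor 4) and that of Epcam from -0.56 (PIIO-1 tumor 2) to -0.30 (PIIO-1 tumor 5). Without a single tumor, 8 to 10 of the 10 genes kept their place in the order of levels, Cldn4 and Upk1b changing places without PIIO-1 tumor 1; all 10 did with the longest transcript as length. The cause was not tested. The labels say nothing of what a replicate number shares, and same-numbered tumors did not deviate together (correlations of -0.21 to 0.095, and 0 of 5 PIIO-1 tumors closest to their own number); with the replicate block, 0 genes passed and Cdh1 differed by 0.72 (SE 0.11, adjusted p = 0.620 by limma). Depth limits Cldn7 and Upk3a most, with 42 and 12 reads over all 10 tumors.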

Other observations

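Msln, which encodes mesothelin, a surface protein of mesothelium and of several carcinomas, averaged 14140 ± 1904 normalized counts in PIIO-1 and 14393 ± 1245 in PBS tumors, and took place 298 of 23960 genes per kilobase. Of 8 mesothelial genes 5 were analysed, and the 4 others had means under 10. Wt1 gave at most 7 reads, Lrrn4 at most 3 and Upk3b at most 6 in any tumor. Upk3bl, named for its likeness to Upk3b, averaged 793 ± 155 in PIIO-1 and 859 ± 131 in PBS tumors, unlike the uroplakin genes Upk1b, Upk2 and Upk3a.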
